A study of Mus musculus with 6 samples.

Results

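Transporters of the solute carrier (SLC) superfamily that carry sugars, amino acids and peptides were followed in mouse colon after lenvatinib, a small-molecule drug that blocks several receptor tyrosine kinases, those for VEGF and FGF among them. The genes were chosen by symbol alone, as all rows of families Slc1, Slc2, Slc3, Slc5, Slc6, Slc7, Slc15, Slc36, Slc38 and Slc43, which gave 92 of 25339 genes in 10 families. Colon RNA from mice that received DMSO, the solvent, was sequenced in 3 libraries, and colon RNA from mice that received lenvatinib in 3 libraries. The sources used here do not give genotype, strain, sex, age, dose, route, duration or whether colitis was induced. The series title concerns worsened colitis and B cell traffic into the gut.

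Absorptive epithelial cells take up nutrients from the gut lumen through transporters of the brush border and pass them to the blood through others on the basolateral side. Sodium-coupled SGLT1 and the fructose carrier GLUT5 serve sugars, and PEPT1 serves small peptides. Neutral amino acids enter mainly through B0AT1, and cystine and dibasic amino acids through a heteromer of the heavy chain rBAT and the light chain b0,+AT. Most of this uptake takes place in the small intestine. The colon absorbs mostly salt, water and short-chain fatty acids, and its cells also carry housekeeping transporters that supply their own glucose and amino acids.

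Levels are FPKM, fragments scaled to gene length and to the library's total, as the authors deposited them, and can be compared between genes because they are per length. The 3 values of a group are given in the order of libraries 1, 2 and 3. A difference is the lenvatinib mean less the DMSO mean of log2(FPKM + 1), where the pseudocount of 1 makes the change of low genes look smaller than it is. A gene was tested where its mean reached 1 FPKM, by limma's two-sided test with p-values adjusted by Benjamini-Hochberg over all 11774 such genes and called under 0.05, and 43 of the 92 transporters passed this filter on low values. Depth was 37598187 to 39221666 reads in genes per library. Libraries 2 and 3 of each group lay close together. Their median squared deviation was 2.76 times counting noise between DMSO 2 and 3 and 2.36 times between lenvatinib 2 and 3, against 14.4 to 39.2 times for the other pairs. The labels call the libraries biological replicates without naming animals, so the p-values speak only to how far these libraries scatter, which may be technical in part. DMSO 1 alone held the Y-linked transcript Ddx3y (6.54 FPKM, and 0 in the other 5 libraries), and Xist, which is transcribed from the inactive X chromosome of female cells, had 1 read there and 15.9 to 19.8 FPKM in the other 5. By these transcripts DMSO 1 was of the male type and the other 5 libraries of the female type, so that the DMSO group mixed both, and the fit has no term for sex. Calls are therefore also given without single libraries.

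Of 16 colon epithelial markers 12 were tested. Car1, a carbonic anhydrase of colonocytes, was at 7590 to 10357 FPKM and made up most of their summed level, which was 10627 to 12421 FPKM in DMSO and 10019 to 14061 FPKM with lenvatinib. None of the 12 passed in limma (2 higher and 2 lower at an unadjusted p under 0.05; voom also called none). Of the 12 differences 10 were positive and 2 negative, with a median of 0.15. The goblet cell mucin Muc2 measured 262, 122 and 136 FPKM in DMSO and 71.0, 86.2 and 93.0 FPKM with lenvatinib, without overlap. Krt20 was also lower without overlap (difference −0.22), and Slc26a3 (0.75) and Scnn1b (1.03) were higher without overlap. Scnn1b, at a DMSO mean of 0.955 FPKM, reached the filter only through the lenvatinib libraries. The distal genes Hoxb13 and Hoxd13 were at or near 0 throughout, and Hoxa13 was at 0.233 to 0.728 FPKM.

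The 2 chains of the cystine and dibasic amino acid transporter both rose with lenvatinib, and so did the urate carrier gene Slc2a9. These 3 were the only transporters that passed, all in the direction of higher levels, out of 43 tested (6.98%). Over all genes tested, 1.10% passed as higher, 0.934% as lower and 2.03% in either direction. None of the 43 passed as lower in limma. At an unadjusted p under 0.05, 9 transporters were higher (20.9%) and 5 lower (11.6%), where all genes gave 7.49% and 14.5%. Among the 9, Slc7a9, Slc2a5 and Slc6a4 had DMSO means of 0.102, 0.947 and 0.562 FPKM and reached the filter only through the lenvatinib libraries. Among the 5, Slc7a6 had a lenvatinib mean of 0.810 FPKM and reached it only through the DMSO libraries. The shares of transporters were thus not independent of the differences of these genes. With voom on reads recovered from the FPKM values, 2 were called higher and none lower, where all genes gave 1.30% and 1.00%. In bulk tissue, fewer cells of a type and less RNA per cell cannot be told apart.

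Slc7a9 encodes b0,+AT, the light chain that forms the transport path for cystine, lysine, arginine and ornithine. It measured 0.149, 0.0881 and 0.0672 FPKM in DMSO and 1.89, 2.81 and 3.03 FPKM with lenvatinib. The DMSO libraries were all near 0 and the groups did not overlap. Reads showed the same step, from 13, 8 and 6 in DMSO to 166, 252 and 269 with lenvatinib. The mean rose from 0.102 ± 0.0427 to 2.58 ± 0.605 FPKM (SD, n = 3 each), 25.4-fold on the FPKM scale, and by 1.69 (SE 0.141) on the log2(FPKM + 1) scale (limma adjusted p = 0.00483). With so low a level in DMSO, Slc7a9 passed the filter at 1 FPKM only through the lenvatinib libraries, so its place among the tested genes was not independent of its difference. The call held without any 1 of the 6 libraries (adjusted p = 2.01e-04 to 0.0460) and was lost with libraries 2 and 3 averaged (0.196).

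Slc3a1 encodes rBAT, the heavy chain that brings b0,+AT to the brush border. It measured 4.61, 5.07 and 5.05 FPKM in DMSO and 10.6, 18.0 and 17.7 FPKM with lenvatinib. Every lenvatinib library was above every DMSO library, and lenvatinib 1 was the lowest of its group. The mean rose 3.14-fold, from 4.91 ± 0.257 to 15.4 ± 4.16 FPKM (SD, n = 3 each; log2 difference 1.44, SE 0.195; limma adjusted p = 0.0237). The call held without lenvatinib 1 (1.65e-04) and was lost without any other library (0.0648 without DMSO 1, 0.125 without DMSO 2, 0.133 without DMSO 3, 0.101 without lenvatinib 2 and 0.112 without lenvatinib 3), with libraries 2 and 3 averaged (0.450) and with voom (0.0509).

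The fold on the FPKM scale was 25.4 for the light chain and 3.14 for the heavy chain. The ratio of Slc3a1 to Slc7a9 was 30.9, 57.5 and 75.1 in DMSO 1 to 3, where it rests on few Slc7a9 reads, and 5.62, 6.38 and 5.85 in lenvatinib 1 to 3, lower in all of the latter. Among the 92 transporters ordered by level, Slc3a1 stood at place 21 to 23 in DMSO and 9 to 11 with lenvatinib, and Slc7a9 at 58 to 61 and 26 to 35.

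In the GENCODE M21 annotation, 26.5% of the exon bases of Slc3a1 overlap Prepl, a gene for a peptidase-like protein on the opposite strand. The sources used here do not give the strand setting of the counting, so reads of the overlap cannot be assigned. Prepl measured 8.93, 10.5 and 10.5 FPKM in DMSO and 8.73, 8.35 and 8.67 FPKM with lenvatinib, lower without overlap. The part of Prepl reads in the Slc3a1 values was not tested.

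The promoters of both chains are shown because these genes rose together. Each is the 250 bases before the start site in RefSeq's table for build GRCm38.p6, while the submitters' processing notes name GRCm39. Slc3a1 lies at chr17:85028097-85028346 on the plus strand and Slc7a9, at the first of its 2 listed starts, at chr7:35448842-35449091 on the plus strand. Capitals mark a match to any of the motifs searched on both strands.
Slc3a1: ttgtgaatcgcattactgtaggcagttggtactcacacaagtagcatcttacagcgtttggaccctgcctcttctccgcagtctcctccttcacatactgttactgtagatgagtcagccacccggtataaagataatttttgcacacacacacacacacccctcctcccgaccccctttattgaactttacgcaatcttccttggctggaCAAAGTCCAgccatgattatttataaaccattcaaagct
Slc7a9: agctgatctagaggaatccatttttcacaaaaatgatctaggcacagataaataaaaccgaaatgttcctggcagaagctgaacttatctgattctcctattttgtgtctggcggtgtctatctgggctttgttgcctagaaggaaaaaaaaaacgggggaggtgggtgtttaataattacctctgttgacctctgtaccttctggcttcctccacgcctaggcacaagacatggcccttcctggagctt
The match in Slc3a1 begins 39 bases before the start site and is of the type bound by HNF4 factors, the hepatocyte nuclear factors also found in gut epithelium (CAAAGTNCA). Of 69 transporters with a promoter in the table, Slc3a1 was the only one that held it. Over all genes with a window the share was 1.40%, so 1 of 69 is near the background. Over all 32851 windows the share was 1.19%. Slc7a9 held no match to this motif, to TGATGNAA (the amino acid response element bound by ATF4 partners), to an HNF1 motif or to TTTATG (of the CDX type). The shares of all genes with the last 3 were 3.91, 0.0740 and 12.4% (3.45, 0.0609 and 10.8% of all windows), and 3, 0 and 2 of the 69 transporters held them. None of these motifs overlapped another in the printed stretches.

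**Figure D1:**
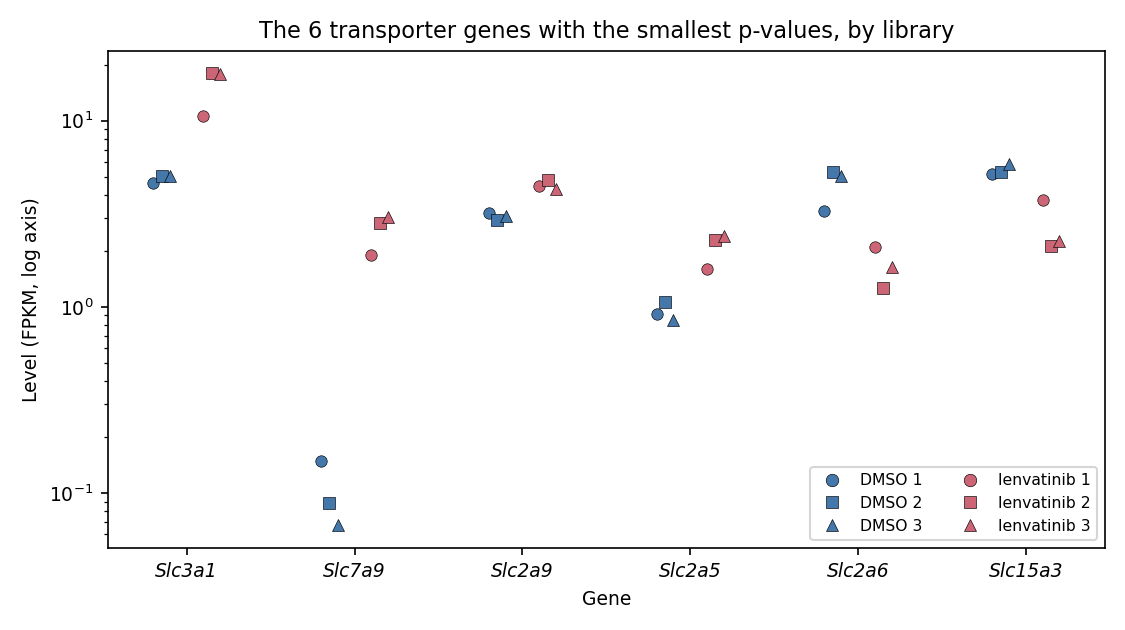
Level in FPKM on a log axis for the 6 transporter genes with the smallest p-values, 1 point per library (circle, square and triangle for libraries 1, 2 and 3; blue DMSO, red lenvatinib). The groups do not overlap in any of the 6; Slc7a9 lies between 0.0672 and 0.149 FPKM in DMSO and between 1.89 and 3.03 FPKM with lenvatinib.

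The other transporters of the brush border did not pass or were too low to test. The group of brush border amino acid and peptide transporters held 13 genes, of which 6 were tested, 2 rose (the pair above) and none fell. Its median difference was 0.44, against −0.07 over all genes tested. This median rests on only 6 genes, with Slc7a9 among them, which was tested only through the lenvatinib libraries. Slc6a14, for the sodium- and chloride-coupled carrier ATB0,+ of neutral and basic amino acids, was the most abundant of the group. It measured 42.4, 46.7 and 46.0 FPKM in DMSO and 28.4, 72.7 and 72.3 FPKM with lenvatinib. Lenvatinib 1 was below every DMSO library and lenvatinib 2 and 3 above all of them, and the mean difference of 0.24 had a 95% interval from −0.64 to 1.11 (limma adjusted p = 0.699).

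Slc1a1, for the glutamate and cysteine carrier EAAC1, measured 2.94, 0.749 and 0.693 FPKM in DMSO and 1.71, 2.05 and 1.85 FPKM with lenvatinib. Slc6a20a, for the proline carrier SIT1, measured 2.25, 0.760 and 0.949 FPKM in DMSO and 2.32, 2.26 and 2.19 FPKM with lenvatinib. In the annotation 31.9% of the exon bases of Slc1a1 overlap 4430402I18Rik on the opposite strand. In both genes DMSO 1 was the high library of its group, and neither passed (adjusted p = 0.537 and 0.233). Without DMSO 1 both passed as higher, with limma adjusted p = 0.0313 for Slc1a1 and 0.0227 for Slc6a20a. Reads of Slc6a20a could be split with its copy Slc6a20b, which was at most 0.0150 FPKM. Slc36a1, for the proton-coupled carrier PAT1, was level, at 6.19 ± 0.108 and 6.19 ± 0.340 FPKM (SD, n = 3 each; 95% interval of the log2 difference −0.16 to 0.16).

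Slc6a19 and Slc15a1 were below the filter. Slc6a19, for the neutral amino acid carrier B0AT1, measured 0.361, 0.136 and 0.138 FPKM in DMSO and 0.467, 1.92 and 1.81 FPKM with lenvatinib. The groups did not overlap, but lenvatinib 1 lay close to DMSO 1, with 73 against 56 reads. Slc15a1, for the peptide carrier PEPT1, measured 0.438, 0.137 and 0.164 FPKM in DMSO and 0.268, 0.746 and 1.02 FPKM with lenvatinib, with overlap, since DMSO 1 was above lenvatinib 1.

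Slc15a2, for the high-affinity peptide carrier PEPT2, was high in 1 library of each group. Its level was 2.19, 0.0415 and 0.0603 FPKM in DMSO, 2.87 FPKM in lenvatinib 1 and 0 in lenvatinib 2 and 3. In reads these were 354, 7 and 10 in DMSO and 467, 0 and 0 with lenvatinib, where 0 reads allow a level of up to 0.0180 and 0.0182 FPKM (3 reads, counting error only). DMSO 1 and lenvatinib 1 were high and the other 4 libraries near 0.

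**Figure D2:**
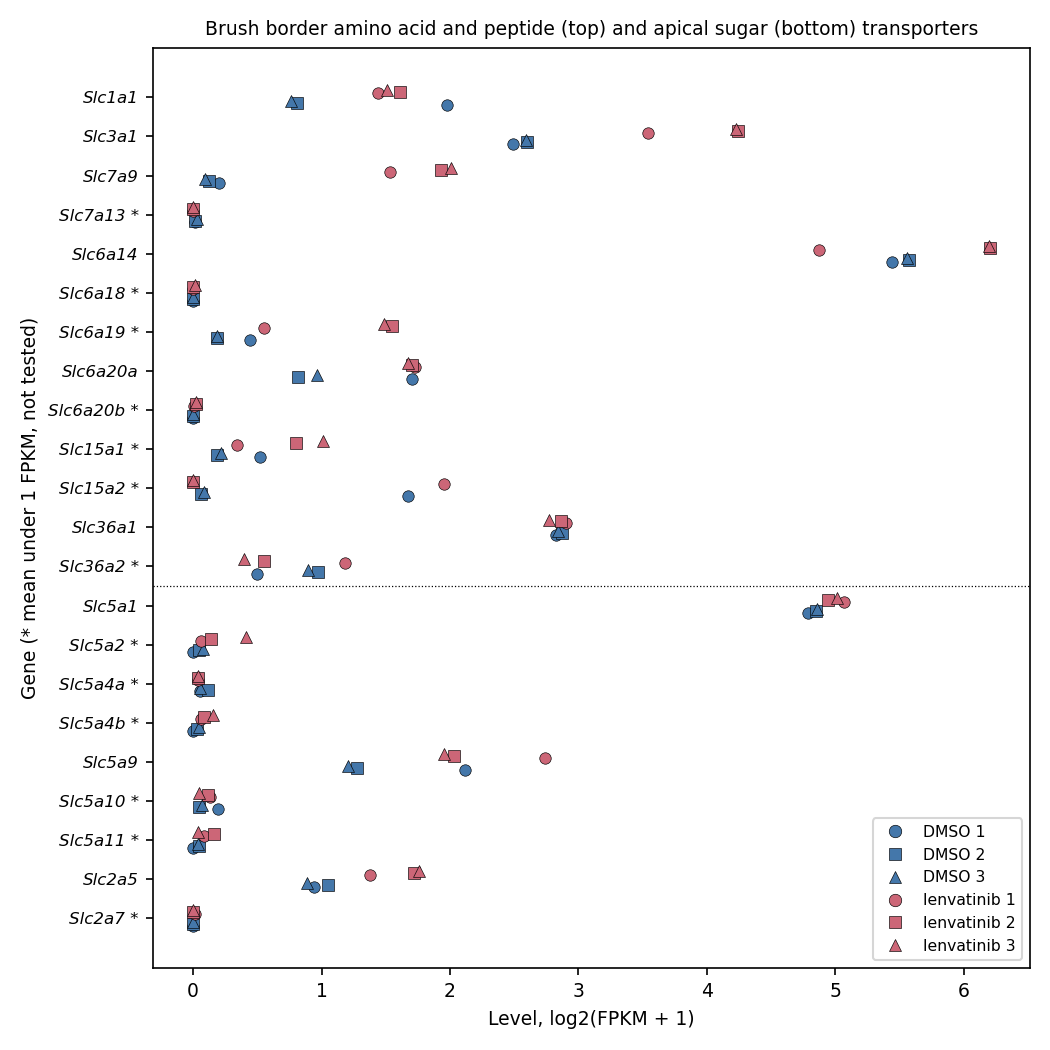
Level of 22 brush border transporter genes on the log2(FPKM + 1) scale, 1 point per library (blue DMSO, red lenvatinib; circle, square and triangle for libraries 1, 2 and 3), with amino acid and peptide carriers above the dotted line and sugar carriers below it. Slc3a1, Slc7a9, Slc5a1, Slc2a5 and Slc6a19 are separated by treatment in all libraries, and so are some genes near 0. Slc15a2 is high only in DMSO 1 and lenvatinib 1, and most genes marked with an asterisk lie near 0.

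Of 9 sugar carriers of the apical side 3 were tested, with differences of 0.18 to 0.71, and none passed in limma (2 higher and none lower at an unadjusted p under 0.05; voom also called none). Slc5a1, for the glucose and galactose carrier SGLT1, was well expressed, at 26.6, 27.9 and 28.1 FPKM in DMSO and 32.5, 29.8 and 31.3 FPKM with lenvatinib. These groups did not overlap, the difference was 0.18 (95% interval 0.03 to 0.32) and it did not pass (limma adjusted p = 0.174). Slc5a9, for the mannose carrier SGLT4, measured 3.33, 1.43 and 1.31 FPKM in DMSO and 5.66, 3.09 and 2.87 FPKM with lenvatinib, with DMSO 1 and lenvatinib 1 the highest of their groups and with overlap (adjusted p = 0.248).

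Slc2a5, for the fructose carrier GLUT5, measured 0.918, 1.07 and 0.854 FPKM in DMSO and 1.60, 2.29 and 2.39 FPKM with lenvatinib. The groups did not overlap and the mean of lenvatinib was 2.21 times that of DMSO, but the gene did not pass (log2 difference 0.66, 95% interval 0.36 to 0.96; limma adjusted p = 0.0608). It passed without lenvatinib 1 (0.00177). With a DMSO mean of 0.947 FPKM, Slc2a5 reached the filter only through the lenvatinib libraries, so being tested was not independent of its difference. Khk, the first enzyme of fructose breakdown, did not pass either, at 7.21, 11.2 and 10.4 FPKM in DMSO and 12.2, 19.4 and 17.5 FPKM with lenvatinib. The remaining 6 apical sugar carriers, among them the close copies Slc5a4a and Slc5a4b whose reads could be split, stayed below 0.5 FPKM in every library.

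Of 20 small intestinal markers 15 were tested, 10 rose and none fell, with none lower at an unadjusted p under 0.05. Over all genes tested 1.10% passed as higher and 0.934% as lower. Of the 10, Sis, Mptx2, Apoa1, Mttp, Defa24 and Naaladl1 had DMSO means of 0.0373 to 0.890 FPKM. These genes passed the filter at 1 FPKM only through the lenvatinib libraries. Their place among the tested genes, and so the count of 10, was not independent of their difference. Fabp6, whose product binds bile acids in ileal cells, rose from 1.44, 2.28 and 2.27 FPKM in DMSO to 161, 160 and 148 FPKM with lenvatinib (limma adjusted p = 2.01e-05). Apoa1, an apolipoprotein, rose from 0.506, 0.230 and 0.208 FPKM to 6.16, 40.0 and 40.3 FPKM (0.0441), and Mttp, which loads lipid onto lipoproteins, from 0.277, 0.286 and 0.432 FPKM to 2.96, 3.34 and 3.42 FPKM (0.00103). Fabp2, the fatty acid binding protein that made up most of the list's summed level in DMSO, did not pass. It measured 406, 535 and 540 FPKM in DMSO and 302, 479 and 462 FPKM with lenvatinib. The urea cycle gene Cps1, with a difference of −0.06, did not pass either. The summed level of the list was 461 to 611 FPKM in DMSO and 695 to 1000 FPKM with lenvatinib, where Fabp2 made up less of it. Defa24 measured 1.13, 0 and 0 FPKM in DMSO and 94.8, 139 and 124 FPKM with lenvatinib. Gata4, Onecut2 and Lct stayed below 0.1 FPKM in every library, and so did Slc2a2, for the basolateral carrier GLUT2 of absorptive cells, which had at most 4 reads. The part of these transcripts in the transporter results was not tested. Slc3a1, Slc7a9 and Slc2a9 are also active in kidney or liver. Of 5 markers of those tissues, Ttr measured 6.65, 13.3 and 12.5 FPKM in DMSO and 7.63, 25.6 and 25.6 FPKM with lenvatinib and did not pass, and Alb, Serpina1c, Slc34a1 and Aqp2 were at most 0.292 FPKM. Of 5 pancreas markers, Cela1 was at 24.8 to 38.2 FPKM in every library, Ctrb1 and Cel were at most 0.0289 FPKM, and Pnlip and Prss2 were listed at 0.

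Other steps of sugar and protein absorption gave 2 calls, both higher, among 24 tested genes of 31 listed, and none lower (none lower at an unadjusted p under 0.05 either, and voom called 3 higher, Enpep and Slc9a3 among them). The share called higher over all genes tested was 1.10% in limma. Sis, the sucrase-isomaltase of the brush border, rose from 0.0398, 0.102 and 0.0690 FPKM in DMSO to 1.60, 3.71 and 3.43 FPKM with lenvatinib (limma adjusted p = 0.0179). It passed the filter at 1 FPKM only through the lenvatinib libraries, so its place among the tested genes was not independent of its difference. Enpep, an aminopeptidase, rose from 2.20 ± 0.135 to 12.3 ± 3.83 FPKM (SD, n = 3 each; limma adjusted p = 0.0130). Both are also among the small intestinal markers above. Slc9a3, for the sodium-proton exchanger NHE3 that supplies protons to peptide uptake, just missed the threshold at 10.2, 4.93 and 4.72 FPKM in DMSO and 20.1, 18.6 and 18.7 FPKM with lenvatinib (0.0522).

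The third gene that passed, Slc2a9, encodes GLUT9, which carries urate. It measured 3.18, 2.91 and 3.06 FPKM in DMSO and 4.46, 4.82 and 4.31 FPKM with lenvatinib, and rested on 497 to 810 reads per library. The groups did not overlap and were tight. The mean rose 1.48-fold (log2 difference 0.45, SE 0.0713; limma adjusted p = 0.0388). The call held without lenvatinib 1 (0.00627) and was lost without DMSO 1 (0.0566), DMSO 2 (0.207), DMSO 3 (0.207), lenvatinib 2 (0.199) or lenvatinib 3 (0.155), and with libraries 2 and 3 averaged (0.736).

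Of the 8 tested genes among the 11 carriers of glucose and polyols in cells and at the basolateral side, Slc2a9 alone passed. Slc2a1, for the widespread glucose carrier GLUT1, was the most abundant transporter of all 92 in 5 of 6 libraries. It measured 62.2, 54.1 and 54.5 FPKM in DMSO and 57.9, 71.7 and 73.8 FPKM with lenvatinib. Lenvatinib 1 lay within the DMSO range and the gene did not pass (log2 difference 0.24, 95% interval −0.03 to 0.51; adjusted p = 0.259). Slc2a3, for the high-affinity carrier GLUT3, was below the filter, at 1.02, 0.949 and 1.09 FPKM in DMSO and 1.09, 0.518 and 0.578 FPKM with lenvatinib.

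Slc2a6 and Slc15a3 had the lowest differences of the 43, and neither passed. Slc2a6, for the lysosomal hexose carrier GLUT6, measured 3.27, 5.29 and 5.07 FPKM in DMSO and 2.10, 1.27 and 1.63 FPKM with lenvatinib. The groups did not overlap (log2 difference −1.05, 95% interval −1.50 to −0.60; limma adjusted p = 0.0531). It passed as lower without DMSO 1 (0.0326) and without lenvatinib 1 (0.00740), and with TMM, median-of-ratios and quantile scaling (0.0461, 0.0463 and 0.0435). Slc15a3, for a lysosomal carrier of histidine and peptides, measured 5.15, 5.30 and 5.85 FPKM in DMSO and 3.73, 2.13 and 2.26 FPKM with lenvatinib, again without overlap (log2 difference −0.82, 95% interval −1.22 to −0.42; adjusted p = 0.0738). It passed without lenvatinib 1 (7.76e-04) and with quantile normalization (0.0395). In the annotation 28.1% of its exon bases overlap Tmem132a on the opposite strand, which measured 1.82, 2.33 and 2.37 FPKM in DMSO and 1.93, 1.11 and 1.35 FPKM with lenvatinib.

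Macrophage markers were lower in the same libraries. Of 11 markers, all tested, 9 fell and none rose, where 0.934% of all genes tested passed as lower. Their summed level was 726 to 897 FPKM in DMSO and 323 to 449 FPKM with lenvatinib, with none at 0. Their part in the values of Slc2a6 and Slc15a3 was not tested. Of 7 B cell markers none passed in limma (7 lower at an unadjusted p under 0.05, where 14.5% of all genes tested were), and voom also called none. Their sum was 69.1 to 84.1 FPKM in DMSO and 8.32 to 42.7 FPKM with lenvatinib. The lysosomal carrier genes Slc15a4, Slc36a4, Slc38a7 and Slc38a9 had differences between −0.12 and 0.09.

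**Figure D3:**
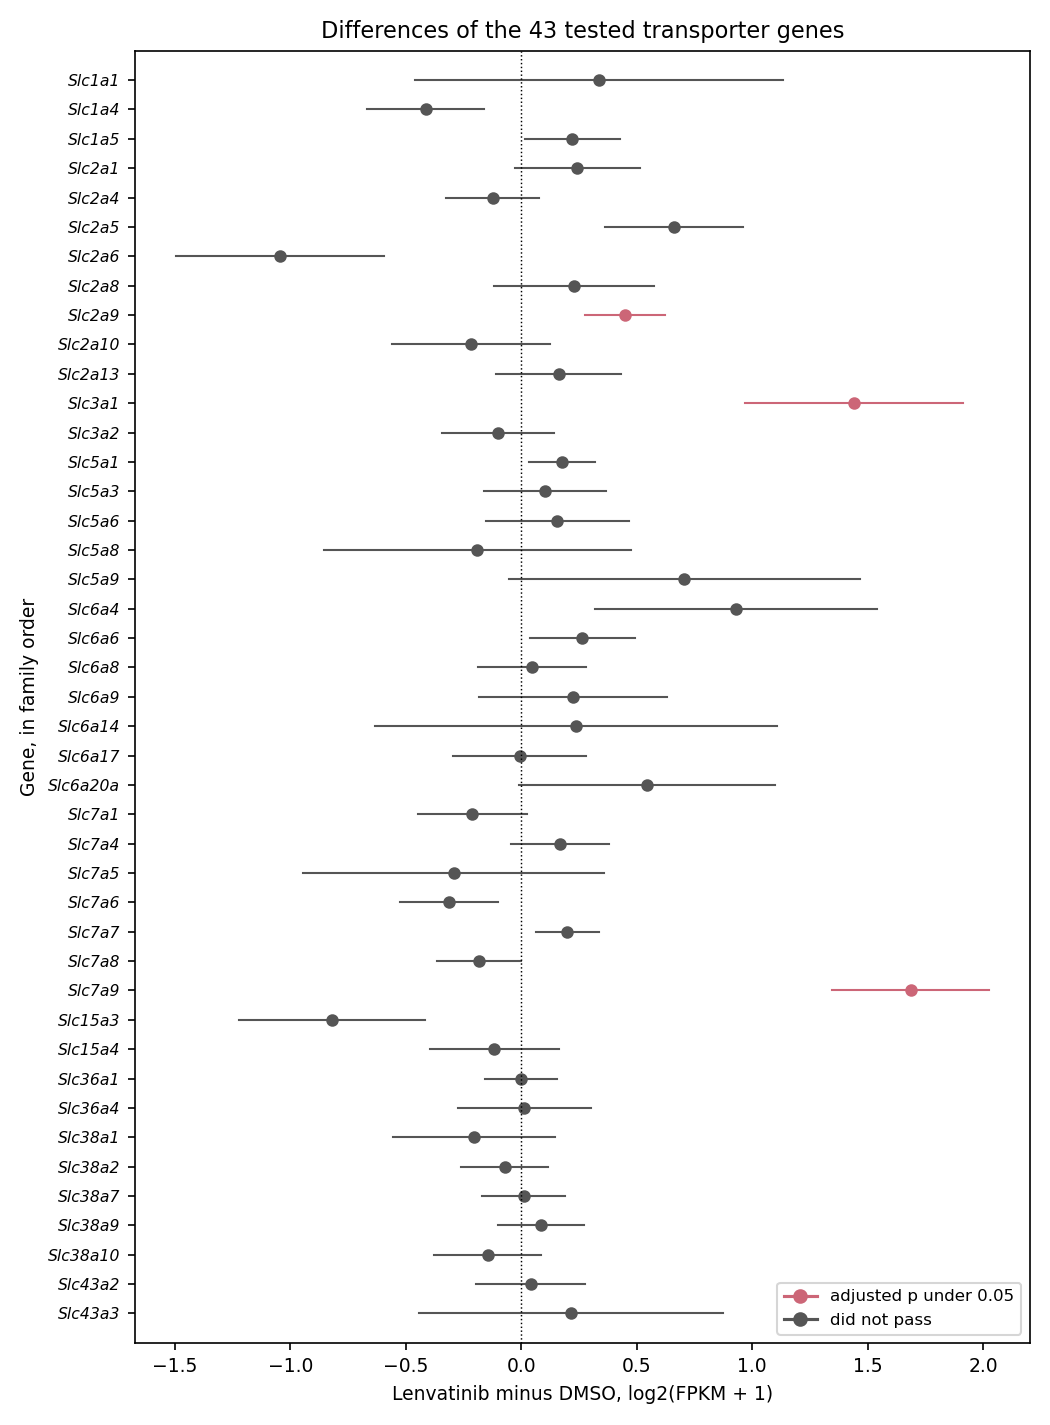
Difference between lenvatinib and DMSO on the log2(FPKM + 1) scale for the 43 tested transporter genes in family order, with 95% intervals from limma (red, adjusted p under 0.05; grey, did not pass). Slc7a9, Slc3a1 and Slc2a9 pass with differences of 1.69, 1.44 and 0.45, and the lowest value is that of Slc2a6 at −1.05.

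Basolateral amino acid carriers showed small differences of both signs. Slc7a7, for the light chain y+LAT1 that exports dibasic amino acids to the blood, measured 8.43, 8.25 and 8.40 FPKM in DMSO and 9.98, 9.61 and 9.65 FPKM with lenvatinib. All lenvatinib libraries were higher, by a mean of 1.17 times, and the gene did not pass (adjusted p = 0.127). Slc7a6 and Slc7a8, for the light chains y+LAT2 and LAT2, were lower without overlap, from 1.25 ± 0.0394 to 0.810 ± 0.135 FPKM and from 1.27 ± 0.0644 to 1.00 ± 0.0455 FPKM (SD, n = 3 each), and did not pass either (0.127 and 0.223 in limma). Slc7a6 reached the filter only through the DMSO libraries, so being tested was not independent of its difference. The common heavy chain gene of these light chains, Slc3a2, for 4F2hc, measured 7.12 ± 0.804 and 6.56 ± 0.620 FPKM in DMSO and with lenvatinib. Its difference was −0.10 with a 95% interval from −0.34 to 0.14, against 0.97 to 1.91 for the heavy chain gene Slc3a1; the difference between the 2 genes was not tested.

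Of 10 carriers for the cell's own amino acid supply 8 were tested and none passed in limma (1 higher and 1 lower at an unadjusted p under 0.05; voom also called none). Slc38a2 and Slc1a5, for the glutamine carriers SNAT2 and ASCT2, were the most abundant of these. Slc38a2 measured 46.4, 39.7 and 40.0 FPKM in DMSO and 38.3, 40.2 and 41.1 FPKM with lenvatinib, with overlap between the groups. Slc1a5 measured 33.0, 35.0 and 37.0 FPKM in DMSO and 45.5, 38.7 and 39.0 FPKM with lenvatinib, higher in every library (95% interval of the difference 0.02 to 0.43; adjusted p = 0.208). Slc1a4, for the neutral amino acid carrier ASCT1, measured 9.45, 10.1 and 10.8 FPKM in DMSO and 6.24, 8.07 and 7.80 FPKM with lenvatinib, lower in every library (adjusted p = 0.111).

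Slc7a5, for the large neutral amino acid carrier LAT1, measured 5.63, 4.09 and 4.92 FPKM in DMSO and 6.30, 2.96 and 2.76 FPKM with lenvatinib, with lenvatinib 1 the highest of all 6. Lenvatinib 1 was also the highest of its group in Slc7a1, for the cationic amino acid carrier CAT1, at 7.41, 8.03 and 8.08 FPKM in DMSO and 7.69, 6.18 and 6.13 FPKM with lenvatinib. The same held for Slc38a1, for the glutamine carrier SNAT1, which measured 7.35 ± 0.583 FPKM in DMSO and 6.32 ± 1.45 FPKM with lenvatinib (SD, n = 3 each). It held too for Slc7a11, for the cystine-glutamate exchanger xCT, which lay below the filter at 0.575, 0.823 and 0.802 FPKM in DMSO and 0.704, 0.317 and 0.289 FPKM with lenvatinib. Slc6a9, for the glycine carrier GlyT1, went the other way, at 5.68 FPKM in lenvatinib 1 and 7.82 and 8.20 FPKM in lenvatinib 2 and 3, against 5.10 to 7.38 FPKM in DMSO, and 27.8% of its exon bases overlap Ccdc24 on the opposite strand. In the ATF4 amino acid response, a programme that induces several of these carriers when amino acids run short, none of 18 tested genes of 21 passed in limma (1 lower and none higher at an unadjusted p under 0.05; voom also called none). Its median difference was −0.06, but lenvatinib 1 lay apart from lenvatinib 2 and 3 in several of its genes. Phgdh measured 12.1, 15.2 and 16.4 FPKM in DMSO and 16.5, 3.97 and 4.15 FPKM with lenvatinib. Psat1 measured 6.39, 7.86 and 8.51 FPKM in DMSO and 10.6, 2.67 and 2.70 FPKM with lenvatinib. Atf3 went the other way, at 7.71 FPKM in lenvatinib 1 and 11.3 and 12.5 FPKM in lenvatinib 2 and 3. In DMSO Atf3 was at 9.46 to 12.3 FPKM. Of 7 genes that mark handling stress and RNA quality 1 fell (Fos), and 6 were lower and none higher at an unadjusted p under 0.05. Over all genes tested 0.934% passed as lower, and 14.5% were lower at an unadjusted p under 0.05. The summed level of the 7 was 920 to 1321 FPKM in DMSO and 784 to 844 FPKM with lenvatinib, and their part in the results was not tested.

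Among carriers of transmitters, osmolytes and creatine, none of 4 tested of 18 passed in limma, with 2 higher and none lower at an unadjusted p under 0.05, and voom called none. Slc6a4, for the serotonin carrier SERT, which gut epithelial cells use to clear serotonin, measured 0.316, 0.744 and 0.626 FPKM in DMSO and 1.02, 2.71 and 2.45 FPKM with lenvatinib. The groups did not overlap, the mean of lenvatinib was 3.67 times that of DMSO, and the gene did not pass (log2 difference 0.93, 95% interval 0.32 to 1.54; limma adjusted p = 0.124), though it did without lenvatinib 1 (0.00259). With a DMSO mean of 0.562 FPKM, Slc6a4 reached the filter only through the lenvatinib libraries, so being tested was not independent of its difference. Slc6a6, for the taurine carrier TauT, measured 35.2, 28.6 and 28.8 FPKM in DMSO and 35.3, 37.5 and 38.6 FPKM with lenvatinib, where lenvatinib 1 was only just above DMSO 1. Slc6a8, for the creatine carrier, measured 31.3 ± 3.13 and 32.3 ± 2.77 FPKM (SD, n = 3 each; 95% interval of the log2 difference −0.19 to 0.28).

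Slc5a8, for SMCT1, which takes up short-chain fatty acids in colonocytes, was among the most abundant members. It measured 39.8, 41.6 and 42.1 FPKM in DMSO and 22.2, 46.6 and 44.6 FPKM with lenvatinib. Lenvatinib 1 was the lowest library and lenvatinib 2 and 3 the highest, and the gene did not pass (adjusted p = 0.682). Slc43a3, for a purine base carrier, showed a single high library, at 15.9 FPKM in lenvatinib 1 against 7.62 to 9.86 FPKM in the others.

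In many of these members lenvatinib 1 lay apart from lenvatinib 2 and 3, as in Slc6a14, Slc5a8, Slc7a5 and Slc43a3. Without lenvatinib 1, 17 of the 43 tested transporters passed, 9 as higher and 8 as lower. Over all genes tested 4479 of 11774 passed, so the share among transporters was near that of all genes.

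By family, Slc2, Slc3 and Slc7 held 1 called gene each, of 8, 2 and 7 tested. The others held none: Slc1 had 3 tested genes, Slc5 5, Slc6 7, Slc15 2, Slc36 2, Slc38 5 and Slc43 2. The median difference over the 43 was 0.09, with 26 positive and 17 negative, against −0.07 over all genes tested. Groups did not overlap in 11 transporters as higher (25.6%) and 5 as lower (11.6%), where all genes gave 10.0% and 17.5%. Slc7a9, Slc2a5 and Slc6a4 (higher) and Slc7a6 (lower) reached the filter only through the group in which they were high. These shares were thus not independent of the differences. The summed level of all 92 was 462 to 488 FPKM in DMSO and 479 to 542 FPKM with lenvatinib, and the 8 most abundant (Slc2a1, Slc6a14, Slc38a2, Slc5a8, Slc1a5, Slc6a6, Slc6a8 and Slc5a1) made up 61.7 to 68.5% of it.

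Of the 49 transporters below the filter, 2 (Slc5a12, for a lactate carrier, and Slc6a5, for the neuronal glycine carrier GlyT2) were listed at 0 in every library, 28 had a mean under 0.1 FPKM, 13 from 0.1 to under 0.5 and 6 from 0.5 to under 1. Just below it were Slc2a3 at 0.875, Slc43a1 at 0.862, Slc15a2 at 0.859 and Slc6a19 at 0.805 FPKM, and just above it Slc7a6 at 1.03 and Slc7a8 at 1.14 FPKM.

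Of these 49 low genes, groups did not overlap in 7 as higher (14.3%) and 5 as lower (10.2%). Over all 13565 genes below the filter, those at 0 throughout included, the shares were 6.08% and 5.28%. Slc36a2, for the proton-coupled carrier PAT2, measured 0.415, 0.960 and 0.862 FPKM in DMSO and 1.27, 0.466 and 0.313 FPKM with lenvatinib. Slc43a1, for the branched-chain amino acid carrier LAT3, measured 0.889, 0.846 and 0.880 FPKM in DMSO and 1.41, 0.620 and 0.526 FPKM with lenvatinib. In both genes lenvatinib 1 was the highest and lenvatinib 2 and 3 were among the lowest.

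The remaining 10 tested transporters had differences between −0.22 and 0.23, with every 95% interval reaching across 0. They were Slc2a4, Slc2a8, Slc2a10 and Slc2a13, for the carriers GLUT4, GLUT8, GLUT10 and HMIT, Slc5a3 and Slc5a6, for myo-inositol and for biotin and pantothenate, Slc6a17, Slc7a4, Slc38a10 and Slc43a2. Among these only Slc7a4 had groups that did not overlap, at 3.05 ± 0.335 FPKM in DMSO and 3.54 ± 0.192 FPKM with lenvatinib (SD, n = 3 each). Slc38a10 was the most abundant of the 10, at 21.3 ± 1.18 and 19.2 ± 2.29 FPKM.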

How the data were processed

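Colon RNA was measured in 6 libraries, 3 from mice given DMSO and 3 from mice given lenvatinib. The authors deposited 1 table of FPKM values per gene. Per the submitters' processing notes, HTSeq and GRCm39 were used. For the aligner, annotation, versions, strand setting and filters nothing is given in the sources used here. FPKM is scaled to each library's total, so a few very abundant genes can shift the others.

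Values were tested with limma 3.58.1 (R 4.3.3; trended, robust prior) on log2(FPKM + 1), for genes whose mean reached 1 FPKM, with Benjamini-Hochberg adjustment over all of them at 0.05. Reads were recovered from the FPKM steps: 21843 of 21859 genes above 0 in at least 2 libraries (99.93%) came out whole within 0.01 reads, and 2092 genes above 0 in 1 library could not be recovered. They served for the read numbers, for depth (37598187 to 39221666 reads) and for limma's voom, which was chosen after seeing the data and called 271 genes. The method was tested on simulated data of 11702 genes for this comparison. Of genes changed 2-fold 98% were recovered, and of those changed 4-fold 97%, with 10 false calls. Real libraries of the same group deviated from each other by 2.36 to 34.8 times counting noise. The simulated libraries were drawn independently with the same dispersion for all genes and libraries, so this uneven scatter was not built in. These shares therefore do not give the power for the real libraries. Anpep, from the list of other absorption steps, was at 4.65 times its DMSO mean with lenvatinib. It did not pass (limma adjusted p = 0.0969), while Slc3a1, at 3.14 times, did.

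The transporters and gene lists were chosen with earlier results of these data known. Text names every transporter that passed, the 3 with the smallest p and the 2 most abundant per family, every tested member of the apical sugar, brush border and cellular uptake groups, and few genes of the other lists. Other transporters, and non-members such as Khk and Slc9a3, were named after their values were seen. Alternatives were another pseudocount, filter, scaling, variance prior, sample weights, blocks and each library left out.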

Additional observations from a re-analysis of the deposited data

How the results depend on the processing

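The 3 transporters higher and 0 lower became 1 higher with no filter and 1 with a mean of at least 5 FPKM, 18 higher and 9 lower with sample weights, 0 higher with libraries 2 and 3 averaged and 1 higher with them as a random block. The number lower was 1 with TMM and with median-of-ratios scaling and 2 with quantile normalization. Calls over all genes, 239, became 140 with no filter, 7582 with sample weights, 3 with libraries 2 and 3 averaged and 46 with the random block. Leaving out 1 library gave 1 to 9 higher, 0 to 8 lower and 45 to 4479 genes in all, with the highest of each without lenvatinib 1. With the replicate block, 0 transporters were higher and 29 genes passed. Deviations of same-numbered libraries from their group means correlated at −0.196, −0.159 and −0.151. Those of DMSO 2 with lenvatinib 3 and of DMSO 3 with lenvatinib 2 correlated at −0.186 and −0.143, and the other pairs at 0.158 to 0.192. Deviations within a group of 3 sum to 0 and are not independent, so these values cannot tell whether the samples were paired. The cause of the moves in the number of calls was not tested.

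Sign changed in 9 transporters, none of which passed, and in no alternative run for the other 34. Slc6a17 was 0.0354 with TMM, 0.0352 with median-of-ratios scaling, 0.0969 with quantile normalization, 0.136 with sample weights and 0.0512 with voom. Slc36a1 was 0.0574 with TMM, 0.0572 with median-of-ratios scaling, 0.0895 with quantile normalization and 0.0662 with voom. With libraries 2 and 3 averaged Slc36a1 was 0.0173 and Slc36a4 −0.0511, and with the random block 0.0158 and −0.0461. With sample weights Slc5a8 was 0.109, Slc38a2 0.0141, Slc38a7 −0.0420 and Slc43a2 −0.00569. Without 1 library the ranges were −0.0910 to 0.0747 for Slc6a17, −0.0357 to 0.0542 for Slc38a7, −0.0221 to 0.122 for Slc6a8, −0.0297 to 0.0368 for Slc36a1, −0.0711 to 0.106 for Slc36a4, −0.373 to 0.144 for Slc5a8, −0.0405 to 0.101 for Slc43a2 and −0.0994 to 0.388 for Slc43a3.

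The planned edgeR and DESeq2 fits were not run, because the deposited unit is FPKM. Differences of genes near 0 depend on the pseudocount: Slc7a9 was 3.73 at 0.1 and 2.34 at 0.5, against 1.69.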
